A study of Mus musculus with 6 samples.

Results

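The subunits of the phagocyte NADPH oxidase and the Rac GTPases that switch it on were followed in mouse erythroleukaemia cells by 6 genes, Cybb, Cyba, Ncf1, Ncf4, Rac1 and Rac2, chosen by symbol from the 25628 symbols of the deposited count table. All 6 had a row, and all 6 passed the filter on low counts that left 14158 genes for testing. The cells were TgSpi1 erythroleukaemic cells of number 722, leukaemic erythroid blasts of bone marrow that overexpress PU.1, the ETS transcription factor encoded by Spi1, and were grown with erythropoietin. Both groups carried an inducible shRNA against Spi1: 3 libraries came from cells given doxycycline for 48 h, which switches the shRNA on, and 3 from cells left untreated. The libraries are numbered 1 to 3 in each group, and the labels call them biological replicates without saying what separates them, so p-values measure the spread between these samples, which may be technical. No group with doxycycline and no active shRNA was among the samples used here, so the agent and the knockdown cannot be told apart, and all values come from 1 line of cells.

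The oxidase is the enzyme with which neutrophils and macrophages make superoxide to kill microbes. Its core is a membrane flavocytochrome of the catalytic chain gp91phox (Cybb) and its stabilising partner p22phox (Cyba). In resting cells further subunits, among them p47phox (Ncf1) and p40phox (Ncf4), wait in the cytosol. On activation p47phox docks on p22phox, p40phox holds the complex to membrane lipid, and GTP-loaded Rac helps to switch electron flow on. Rac2 is the form typical of blood cells, Rac1 is made in nearly all cells, and both also direct actin assembly. PU.1 is a known activator of several of these genes in myeloid cells.

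Total counts lay between 78926663 and 101276319 per library. Spi1 itself stood at 366 ± 43.8 CPM (counts divided by the TMM-scaled library total in 1e6 reads) untreated and 75.8 ± 11.998 CPM with doxycycline (SD, n = 3 each; edgeR log2 fold change -2.27 with SE 0.17, adjusted p = 0.0030), with no overlap of the groups. The erythroid label was checked on 16 markers, of which 15 passed the filter and none passed the test. With the replicate number as a block in the fit 9 rose and 2 fell, where 10.3% of all genes tested rose and 15.6% fell. The summed level of the erythroid markers ran from 5579 to 7113 CPM untreated and from 6855 to 8779 CPM with doxycycline. The 17 neutrophil markers summed to between 0.793 and 48.2 CPM untreated and between 0.373 and 12.8 CPM with doxycycline. Untreated replicate 2 held the highest of these sums and both libraries of replicate 1 the lowest. Since these are bulk RNA samples, fewer cells of a type and less RNA per cell cannot be told apart.

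The members split by level. Rac2, Rac1 and Cyba were abundant, Ncf4 was low, and Cybb and Ncf1 were at or near the lowest value of the table. Per kilobase of exons, the scale on which genes can be compared with each other, untreated Rac2 stood at 193 ± 5.05, Rac1 at 64.8 ± 2.66 and Cyba at 51.7 ± 15.9 CPM per kilobase (SD, n = 3 each). Ncf4 stood at 1.19 ± 0.395 and Cybb and Ncf1 at 0.0650 ± 0.0774 and 0.0569 ± 0.0751 CPM per kilobase. Rac1 and Cyba overlapped in untreated libraries, as did Cybb and Ncf1, and no other neighbours in this order did. With doxycycline the order was Rac2 (99.0 ± 7.88), Rac1 (41.5 ± 3.61), Cyba (19.5 ± 5.93) and Ncf4 (0.470 ± 0.254 CPM per kilobase, SD, n = 3 each), without overlap between these 4, again above Ncf1 and Cybb, which overlapped.

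**Figure D1:**
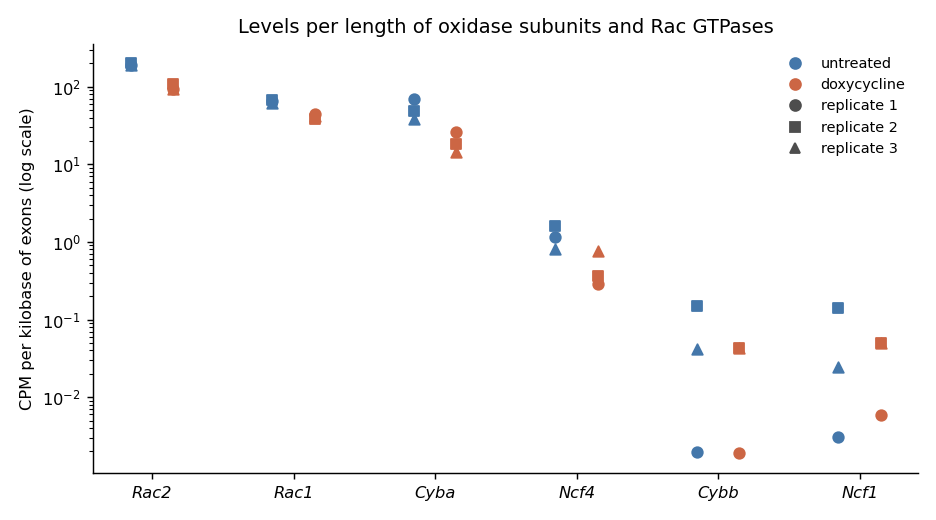
Level of each member in CPM per kilobase of exons (log axis) in the 3 untreated and 3 doxycycline libraries, 1 symbol per library. Rac2 is highest in both groups, and Cybb and Ncf1 are lowest, with both libraries of replicate 1 at the bottom.

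Of the 6 members, 2 fell with doxycycline at an adjusted p under 0.05, Rac1 and Rac2, and none rose. Among all genes tested, 2.59% passed, 2.18% lower and 0.417% higher. The median log2 fold change of the 6 was -1.04, against 0.01 over all genes tested. With the replicate number as a block in the fit, 4 of 6 fell, Cyba and Ncf4 in addition, where 25.8% of all genes passed, 15.6% lower and 10.3% higher. The groups did not overlap, with doxycycline lower, for the same 4 members, where 11.7% of the genes tested had such groups and 8.88% had groups apart with doxycycline higher. Without untreated replicate 1, untreated replicate 2 or doxycycline replicate 1, 0 of 6 passed in edgeR. At an unadjusted p under 0.05 there were 4, 3 and 3. Over all genes tested in those 3 settings, 49 of 14539, 43 of 14459 and 38 of 14534 passed. Those at an unadjusted p under 0.05 numbered 1798, 1448 and 1682. Without each of the other libraries 1 of 6 passed, which was Rac2. Over all genes, 268 of 14411 passed without untreated replicate 3. Without doxycycline replicate 2 or 3, 112 of 14420 and 193 of 14441 did. DESeq2 on all libraries called 3 of 6, and 1013 of the 14158 genes that passed the filter, against 367 in edgeR.

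The membrane subunit p22phox came first among the oxidase genes. Cyba (ENSMUSG00000006519.11, chromosome 8 from 122424776 to 122432930 on the minus strand, GRCm38, protein coding) stood at 71.8, 49.9 and 39.4 CPM in untreated replicates 1, 2 and 3 and at 27.0, 19.1 and 14.8 CPM with doxycycline. The 3 doxycycline libraries were all below the 3 untreated ones, and replicate 1 was highest and replicate 3 lowest in both groups. Within pairs of equal number the doxycycline library held 37.6%, 38.3% and 37.6% of its partner's level, so the ratio varied far less than the level did. The log2 fold change was -1.40 with an SE of 0.30 (edgeR adjusted p = 0.061), which missed the threshold. With the block, where the spread between numbers is taken out, Cyba fell (SE 0.095, adjusted p = 5.9e-06), and it also fell by DESeq2 without a block (adjusted p = 5.1e-04). Annotated positions of Cyba overlap the gene model Gm20388, not analysed here. Summed markers of mast cells and basophils (73.4, 49.97 and 10.3 CPM untreated, then 54.2, 26.9 and 12.01 CPM) and of megakaryocytes and platelets (301, 212 and 65.0 CPM, then 159.7, 121 and 39.6 CPM) were likewise highest in replicate 1 and lowest in replicate 3, and their part in the Cyba level was not tested.

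**Figure D2:**
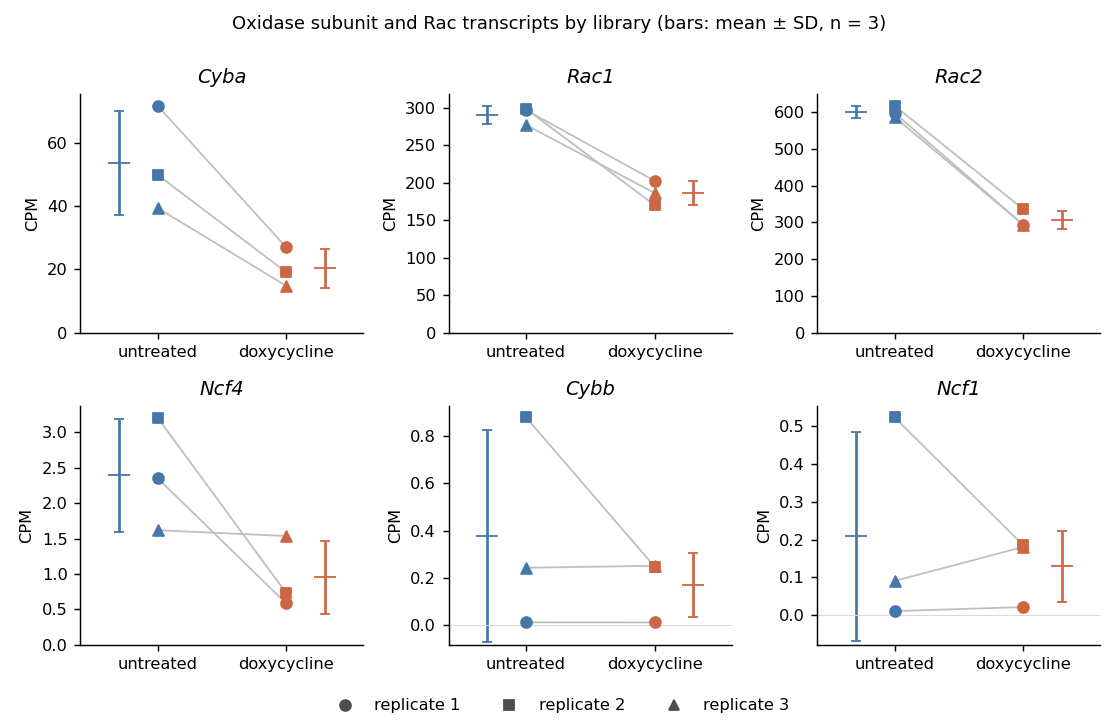
CPM of each member in every library, with untreated and doxycycline libraries of equal replicate number joined by a line and group mean ± SD (n = 3) beside them, on axes that differ between panels. Cyba, Rac1 and Rac2 are lower with doxycycline in all 3 pairs, Ncf4 is lower in 2 pairs and nearly level in the third, and the untreated value of Cybb and Ncf1 rests on replicate 2.

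The catalytic chain was not detectable above the lowest value in replicate 1. Cybb (ENSMUSG00000015340.10, X chromosome from 9435252 to 9487771 on the minus strand, GRCm38, protein coding) had deposited counts of 1, 69 and 24 in untreated replicates 1, 2 and 3 and of 1, 24 and 25 with doxycycline. The smallest value in the table is 1 and no 0 occurs, so a 1 was read as no read, which allows a level of up to 0.0339 CPM in untreated and 0.0329 CPM in doxycycline replicate 1 (3 counts of the library total, counting error only). The groups overlapped and the log2 fold change was -1.12 with an SE of 1.20 (edgeR adjusted p = 0.76). Its sign rests on 1 library: without untreated replicate 2 it was 0.40 with an SE of 1.22 (adjusted p = 0.99).

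The organiser subunit showed the same libraries high and low. Ncf1 (ENSMUSG00000015950.13, chromosome 5 from 134220053 to 134229625 on the minus strand, GRCm38, protein coding) had counts of 1, 41 and 9 untreated and of 2, 18 and 18 with doxycycline. The groups overlapped and the fitted log2 difference was -0.64 with an SE of 1.11 (edgeR adjusted p = 0.86), turning to 1.29 (SE 1.02, adjusted p = 0.83) without untreated replicate 2. The gene overlaps Gtf2ird2 on the other strand, which stood at 6.20 ± 1.41 and 5.56 ± 0.965 CPM (SD, n = 3 each), and the libraries carry no strand mark, so reads from the overlap cannot be assigned to either gene.

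Cybb and Ncf1 moved across the libraries with neutrophil genes. The alarmin gene S100a9, one of the most abundant neutrophil transcripts, had counts of 3, 1171 and 330 in untreated replicates 1, 2 and 3 and of 1, 397 and 326 with doxycycline, and Ltf, which encodes the granule protein lactoferrin, 1, 400 and 110 and then 1, 124 and 114. Of the 17 neutrophil markers, 14 had counts of 3 or less in both libraries of replicate 1. With 1 taken off each value, Cybb gave 18.0, 21.3, 18.7 and 22.3 reads per 1000 neutrophil marker reads in untreated replicates 2 and 3 and doxycycline replicates 2 and 3, with exact Poisson 95% intervals between 11.8 and 33.2. Ncf1 gave 10.6, 7.39, 13.8 and 15.8 per 1000, with intervals between 3.19 and 25.3. These intervals cover counting error only, not the spread between samples, and no test of a constant ratio was made. The 11 B cell markers were low in the same libraries, 9 of them at 5 or less in both libraries of replicate 1, and summed to between 0.555 and 6.40 CPM untreated and between 0.439 and 1.62 CPM with doxycycline. The 14 monocyte and macrophage markers with a row, by contrast, summed to between 22.6 and 31.9 CPM untreated and between 17.3 and 23.4 CPM with doxycycline. Most of it came from Ccr2, and C1qc was at 2 or less in all libraries. Without the block 1 of the 6 tested fell, where 2.18% of all genes tested did, and with it 4, where 15.6% did. The part of these cell types in the Cybb and Ncf1 counts was not tested.

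**Figure D3:**
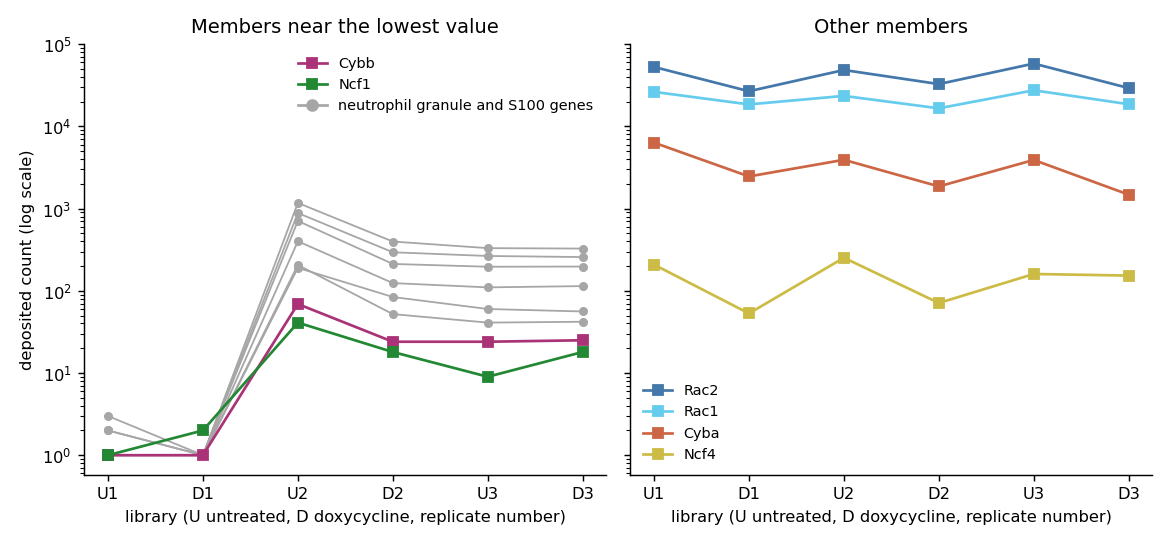
Deposited counts (log axis) of Cybb and Ncf1 with 6 neutrophil genes (S100a9, S100a8, Ngp, Ltf, Camp and Lcn2, grey) on the left, and of Rac2, Rac1, Cyba and Ncf4 on the right, in each library, with lines joining the values of a gene. Cybb, Ncf1 and the neutrophil genes are at 1 to 3 in both libraries of replicate 1 and peak in untreated replicate 2. The other 4 members have 53 counts or more in both libraries of replicate 1.

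The regulatory subunit p40phox was low but present in every library. Ncf4 (ENSMUSG00000071715.12, chromosome 15 from 78244801 to 78262580 on the plus strand of GRCm38, protein coding) had counts of 208, 252 and 160 untreated and of 53, 71 and 153 with doxycycline, or 2.36, 3.21 and 1.62 CPM and 0.582, 0.730 and 1.54 CPM. The groups did not overlap, but doxycycline replicate 3 came within reach of untreated replicate 3. The pairs held 24.7%, 22.7% and 95.0% of the untreated level, so replicate 3 stood apart from the other two. The log2 fold change was -1.33 with an SE of 0.45 (edgeR adjusted p = 0.21), with the block -1.37 (SE 0.36, adjusted p = 0.018), and without both libraries of replicate 3 it was -2.08 with an SE of 0.30 (adjusted p = 0.051). The log2 differences of Ncf4 were -2.02, -2.14 and -0.07 in pairs 1, 2 and 3, where the neutrophil marker reads (1 taken off each value) went from 53 to 17, from 3768 to 1232 and from 1082 to 1076. The part of neutrophil transcripts in the Ncf4 values was not tested.

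Promoter sequence is shown for the 3 members with a RefSeq entry (GRCm38.p6), to set the subunit that was abundant and lower with doxycycline beside those near the lowest value. Each line gives the 250 bases before the annotated start, 5′ to 3′ on the gene's minus strand, with the ETS core GGAA (or TTCC, its reverse complement), around which PU.1 and its relatives bind, in capitals. The windows are chr8:122432941-122433190 for Cyba, chrX:9469325-9469574 for Cybb and chr5:134229626-134229875 for Ncf1. The RefSeq start of Cybb lies inside the span given above for the gene, which holds a further upstream start. Rac1, Rac2 and Ncf4 have no line.
Cyba: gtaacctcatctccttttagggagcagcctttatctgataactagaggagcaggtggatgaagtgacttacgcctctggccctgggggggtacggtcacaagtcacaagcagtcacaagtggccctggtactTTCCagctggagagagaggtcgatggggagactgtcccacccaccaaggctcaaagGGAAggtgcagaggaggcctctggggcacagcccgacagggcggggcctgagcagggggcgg
Cybb: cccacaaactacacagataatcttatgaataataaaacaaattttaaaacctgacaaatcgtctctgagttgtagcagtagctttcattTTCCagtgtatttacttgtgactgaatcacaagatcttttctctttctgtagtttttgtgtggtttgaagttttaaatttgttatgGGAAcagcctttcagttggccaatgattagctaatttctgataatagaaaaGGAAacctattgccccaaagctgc
Ncf1: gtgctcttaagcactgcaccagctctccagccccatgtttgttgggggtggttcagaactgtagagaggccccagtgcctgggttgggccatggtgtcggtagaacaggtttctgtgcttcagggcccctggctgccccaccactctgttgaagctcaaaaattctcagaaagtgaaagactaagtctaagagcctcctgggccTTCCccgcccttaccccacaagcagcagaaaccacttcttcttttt
The core occurred 2 times in the Cyba window, 3 times in that of Cybb and 1 time in that of Ncf1, and 93.4% of 32851 promoter windows of this length hold it at least once. The longer motif GAGGAA, preferred by PU.1 and itself holding the core, was searched on both strands of the 300 bases from 250 before to 50 after the start, where 28.3% of all windows hold it. It was found 1 time among the 3 genes, on the opposite strand just past the start of Cybb at chrX:9469310-9469315. The 30 bases around it, with the motif's reverse complement in capitals, are shown because they hold that single match.
Cybb: tgctgttttcatTTCCTCatcagaagaaga
These matches describe the letters only, and no binding was measured here.

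The Rac GTPases were the members that passed the test. Rac2 (ENSMUSG00000033220.7, chromosome 15 from 78559167 to 78572783 on the minus strand, GRCm38, protein coding) stood at 598, 617 and 586 CPM untreated and at 293, 336 and 293 CPM with doxycycline. The groups were far apart, with 600.4 ± 15.7 and 307 ± 24.5 CPM (SD, n = 3 each), and the pairs held 49.1%, 54.4% and 50.003% of the untreated level. The log2 fold change was -0.97 with an SE of 0.12 (edgeR adjusted p = 0.014). Leaving out 1 library moved it only between -1.03 and -0.92, but ended the call without untreated replicate 1 (adjusted p = 0.066), untreated replicate 2 (0.072) or doxycycline replicate 1 (0.078).

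Rac1 (ENSMUSG00000001847.14, chromosome 5 from 143503634 to 143528036 on the minus strand, GRCm38, protein coding) stood at 297, 299 and 277 CPM untreated and at 203, 170.2 and 186 CPM with doxycycline. The groups did not overlap, and the pairs held 68.2%, 56.9% and 67.2% of the untreated level. The log2 fold change was -0.64 with an SE of 0.12 (edgeR adjusted p = 0.044), just inside the threshold. The call was lost with RLE factors (adjusted p = 0.054), with upper quartile factors (0.073) and without a filter on low counts (0.092), and when any 1 of the 6 libraries was left out (0.090 to 0.19), while the fold change stayed between -0.71 and -0.58 there. With the block the adjusted p was 6.0e-04. Rac1 overlaps Daglb on the other strand, which stood at 25.8 ± 2.25 and 24.8 ± 3.29 CPM (SD, n = 3 each, adjusted p = 0.92).

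The balance of both Rac transcripts leaned less to Rac2 with doxycycline in each pair. Per exon length Rac2 exceeded Rac1 2.91, 2.99 and 3.06 times in untreated replicates 1, 2 and 3 and 2.10, 2.86 and 2.28 times with doxycycline. The untreated ratios lay close together and all 3 doxycycline ratios were below them, that of replicate 2 by little. On the log2 scale the difference of group means was -0.32 (1.04 ± 0.036 untreated and 0.72 ± 0.23 with doxycycline for the count ratio, SD, n = 3 each), and within pairs it was -0.47, -0.07 and -0.43. An exact two-sided permutation test gave p = 0.1, the smallest that 3 against 3 libraries allow, and flipping signs over the 3 pairs gave an exact p = 0.25, likewise the smallest. Neither test could reach a threshold of 0.05 at this number of libraries, so they do not settle whether the response of the 2 GTPases differed. Their summed level was between 864 and 916 CPM untreated and between 479.6 and 506 CPM with doxycycline.

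**Figure D4:**
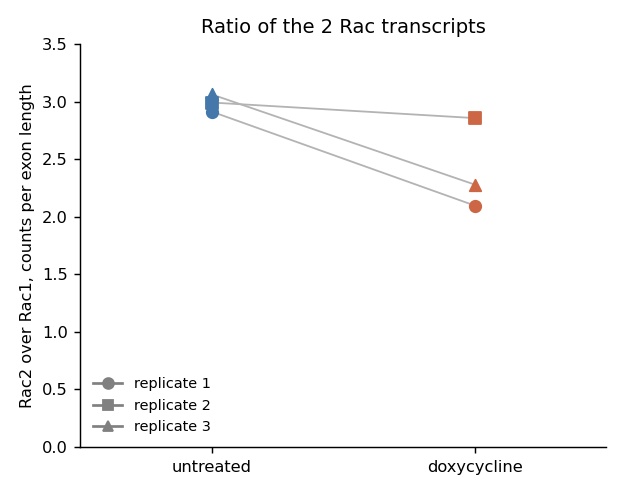
Ratio of Rac2 to Rac1 counts, each divided by its exon length, in untreated and doxycycline libraries, with libraries of equal replicate number joined. The untreated ratios lie between 2.91 and 3.06 and the doxycycline ratios between 2.10 and 2.86.

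The nearest profiles were sought among 8585 or 8586 other genes of at least 5 mean CPM by the root mean square distance between log2 CPM over the 6 libraries, each gene centred on its own mean. Rac2 lay closest to Sfxn2 (0.044) and Mxd4 (0.060), Rac1 to Cd44 (0.048) and Inip (0.048), Cyba to Hsd17b11 (0.12) and Twf2 (0.12), and Ncf4 to Ripor2 (0.29) and Rinl (0.36). Twf2, Ripor2, Rinl, Sfxn2 and Mxd4 fell (edgeR adjusted p between 0.025 and 0.033), while Hsd17b11 (0.084), Cd44 (0.068) and Inip (0.074) missed the threshold. The distance was taken over the same 6 libraries and includes the group difference, so calls of these neighbours are no separate evidence on the members. Cybb and Ncf1 had no near gene at this level: their smallest distances were 1.56 (Cep290) and 1.21 (Brca2), and the next was Syne1 for each, at 1.57 and 1.25. When the minimum level was dropped, a choice made after the values were seen, the nearest of 11214 genes to Cybb were Chil3 (0.11) and Cd177 (0.34), both known from neutrophils, and to Ncf1 Ptprc (0.43), the leukocyte antigen CD45, and Pou2af1 (0.48), a B cell coactivator. Among the members, Rac1 and Rac2 were the closest pair (0.21), and Cybb lay nearer to Ncf1 (0.74) than to any other member, where its distances were at least 2.24.

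Of 11 other oxidase components listed beside the members, 7 had a row, 3 were tested, and 1 fell and none rose, with or without the block. Over all genes tested 2.18% were lower without the block and 15.6% with it. Nox1, a catalytic relative of Cybb, fell from 0.345 ± 0.0233 to 0.118 ± 0.0229 CPM (SD, n = 3 each, -1.54 with SE 0.30, edgeR adjusted p = 0.047), from counts of 25 to 36 to counts of 10 to 14. Annotated positions of Nox1 overlap those of Arl13a, Cstf2 and Xkrx, so reads from shared positions cannot be assigned with certainty. The Nox1 call was lost when any 1 library was left out. It was also lost on all libraries with upper quartile factors (edgeR adjusted p = 0.051) or library totals only (0.0502). The same held without a filter on low counts (0.10) and with 1 taken off each value (0.051). The proton channel gene Hvcn1 (0.230 ± 0.150 and 0.110 ± 0.0505 CPM, adjusted p = 0.49) and Noxo1, the Ncf1 relative that serves Nox1 (0.493 ± 0.235 and 0.416 ± 0.161 CPM, SD, n = 3 each, adjusted p = 0.89), did not pass. No catalytic gene of the family with a row, Cybb, Nox1 or Duox2, exceeded 69 counts in any library.

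Receptors and kinases that set the oxidase off gave 3 calls, all lower, as were 308 of the 367 calls over all genes. For the counts in the lists that follow, 2.18% of all genes tested were lower and 0.417% higher without the block. With the block 15.6% were lower and 10.3% higher. Of 16 receptor genes 7 were tested, 2 fell and none rose, with a median log2 fold change of -2.21, and with the block all 7 fell. Markers of some other cell types were lower beside them, and those of others were not. Of 10 tested neutrophil markers none passed without the block and 2 fell with it (median -1.37). Of 4 tested B cell markers none passed in either fit (median -1.09). Of 6 tested monocyte and macrophage markers 1 fell, which was Fcgr1, and 4 fell with the block (median -1.50). The groups did not overlap, with doxycycline lower, for 4 of the 6, as for 11.7% of all genes tested. Of 2 tested eosinophil markers 1 fell and 2 with the block (median -3.32), and of 6 mast cell and basophil markers none fell without the block and 4 with it (median -1.29). Of T and NK cell markers 2 were tested and 2 rose with the block (median 0.79). The 1 tested dendritic cell marker rose with it as well (median 1.13). Of 8 megakaryocyte and platelet markers tested, 2 rose and 4 fell with it (median -0.75). Without it no marker of these last types passed. In pair 3 the summed monocyte and mast cell markers were higher with doxycycline (22.6 to 23.4 and 10.3 to 12.01 CPM). The part of these cell types in the receptor values was not tested. Itgb2, the beta chain of the leukocyte integrins through which adhesion primes the burst, went from 126 ± 8.62 to 25.3 ± 4.04 CPM (-2.32 with SE 0.17, edgeR adjusted p = 0.0030). Fcgr1, the high-affinity IgG receptor and also 1 of the monocyte markers, went from 1.20 ± 0.197 to 0.153 ± 0.121 CPM (-2.94 with SE 0.53, adjusted p = 0.037; SD, n = 3 each), and kept the call only without doxycycline replicate 3 among the 6 left-out libraries. Of 19 activating kinases and lipid enzymes 13 were tested, 1 fell and none rose, with a median of -0.36, and 7 fell with the block. Pik3cg, the phosphoinositide kinase driven by chemoattractant receptors, went from 45.3 ± 7.95 to 9.16 ± 3.28 CPM (-2.31 with SE 0.29, adjusted p = 0.014; SD, n = 3 each), and lost the call without replicate 1 or 2 of either group.

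Genes that load, hold and use Rac gave 6 calls, all lower, against the same 308 of 367 over all genes. Of 23 exchange factors, which load Rac with GTP, 13 were tested and 1 fell, Dock2, the main Rac exchange factor of leukocyte migration, from 153 ± 45.8 to 23.0 ± 4.998 CPM (-2.74 with SE 0.26, edgeR adjusted p = 0.0064). None rose, the median was -0.28, and 5 fell with the block. Of 14 GTPase activators and dissociation inhibitors 8 were tested and 2 fell, with a median of -0.69, and 7 fell and 1 rose with the block. Arhgdib, which holds Rac proteins inactive in the cytosol of blood cells, went from 443 ± 50.3 to 236 ± 2.71 CPM (-0.91 with SE 0.13, adjusted p = 0.019), and Racgap1, a GTPase activator of cytokinesis, from 242 ± 4.92 to 151 ± 9.04 CPM (-0.68 with SE 0.12, adjusted p = 0.030; SD, n = 3 each). Both lost the call when any 1 of the 6 libraries was left out. Of 18 effectors 16 were tested and 3 fell, with a median of -0.43, and 10 fell and 2 rose with the block. Plcb2, a phospholipase that Rac2 can stimulate, went from 29.0 ± 8.14 to 1.35 ± 0.818 CPM (-4.42 with SE 0.50, adjusted p = 0.012). Nckap1l, the blood cell subunit of the WAVE complex, went from 111 ± 16.6 to 52.0 ± 9.20 CPM (-1.09 with SE 0.19, adjusted p = 0.031), and the kinase Pak1 from 2.72 ± 0.368 to 0.971 ± 0.226 CPM (-1.48 with SE 0.28, adjusted p = 0.041; SD, n = 3 each). Pak1 lost the call without any 1 of the 6 libraries, and Nckap1l kept it only without untreated replicate 3.

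Of 17 genes that handle superoxide and peroxide 14 were tested and Cat, catalase, fell, from 227 ± 34.1 to 56.0 ± 2.56 CPM (-2.02 with SE 0.15, edgeR adjusted p = 0.0030; SD, n = 3 each). None rose, the median log2 fold change was 0.07, and the blocked fit called 2 lower and 1 higher. The superoxide dismutase genes Sod1 and Sod2 had log2 fold changes of 0.17 and 0.19 (adjusted p = 0.75 and 0.81).

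Of the 11 listed genes named here that fell, Itgb2, Plcb2 and Cat kept the call without any 1 of the 6 libraries, and Dock2 lost it without doxycycline replicate 1. Only 3 of the 11 kept it without doxycycline replicate 1, 4 without untreated replicate 1, untreated replicate 2 or doxycycline replicate 2, and 6 without untreated replicate 3 or doxycycline replicate 3, and all 11 kept their direction in each case. With the block, all 11 had an adjusted p of 0.0051 or less. They were picked for their calls in these same libraries, and all 367 genes called without the block passed with it too, so this does not set the 11 apart.

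**Figure D5:**
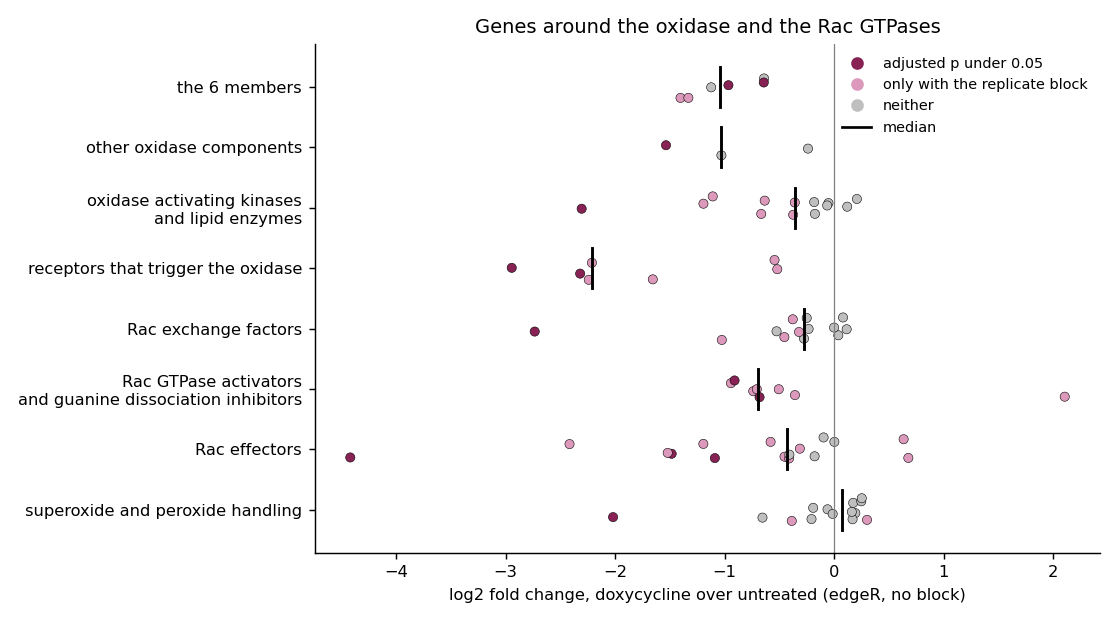
Log2 fold change (edgeR, doxycycline over untreated) of each tested gene of the 6 members and the 7 lists, 1 point per gene, dark where the adjusted p was under 0.05, pale where this held only with the replicate block, with a line at each list's median. The medians run from -2.21 for the receptors to 0.07 for superoxide and peroxide handling.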

How the data were processed

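Poly(A) RNA of 6 samples was sequenced from Illumina TruSeq libraries, per the labels' protocols, without strand information. As deposited by the authors, the values are read counts, 1 row per symbol. STAR, DESeq2 and bcl2fastq 2.17.1.14 are named, per the submitters' processing notes, as are mm10 and GRCm38, with no role. Counter, annotation and treatment of shared reads were not given in the sources used here. The smallest of the deposited counts is 1 in every column, so 1 appears to have been added, and values were tested as deposited. The members, lists and tests were chosen with earlier results of these data known.

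Groups were compared in R 4.3.3 by the quasi-likelihood test of edgeR 4.0.16 (with limma 3.58.1), using TMM factors, filterByExpr and group as the only term, two-sided, Benjamini-Hochberg adjusted over the 14158 genes tested, threshold 0.05, and it was first tested on simulated data. The SE is the fold change over the square root of F. The block is the replicate number: libraries of equal number deviated together from their group means (correlations 0.75, 0.72 and 0.71), so the numbers were taken to pair them, which the labels do not state. Exon lengths, positions and overlaps come from GENCODE M21 (GRCm38), promoters from RefSeq. DESeq2 1.42.0, other scaling factors, filters, 1 taken off each value and left-out libraries were alternatives.

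Named genes were the members, Spi1, the tested other oxidase components, up to 3 genes per other list with the smallest adjusted p under 0.05, and the 2 nearest profiles per member, passing over model and clone names (Gm, Rik). Others were picked after their values were seen: S100a9, Ltf, Ccr2, C1qc, Sod1, Sod2, Duox2, Daglb, Gtf2ird2 and the genes of the closing section. Of 124 pathway symbols, 6 had no row and were not analysed here. Some further listed genes are not reported here. Neutrophil, B cell, monocyte and macrophage and erythroid marker sums are given above, those of mast cells and megakaryocytes too, and the other 3 below.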

Additional observations from a re-analysis of the deposited data

How the results depend on the processing

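All fold changes of Rac1, Rac2, Cyba and Ncf4 kept their direction in the alternatives run. The members called were 2, and 4 with the replicate block and by DESeq2 with the block, 3 by DESeq2, 1 with RLE factors, upper quartile factors or no filter, and between 0 and 1 without 1 library or 1 pair. Genes called were 367, 3658 with the replicate block, 1013 by DESeq2, 3402 by DESeq2 with the block, and between 0 and 268 without 1 library or 1 pair. All 367 were also called with the block. The 0 counts came from edgeR without both libraries of replicate 1 or of replicate 2, where 1191 and 1626 genes had an unadjusted p under 0.05.

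Cyba passed with the replicate block (-1.40), in DESeq2 (-1.39) and in its blocked form (-1.38), and Ncf4 with the replicate block (-1.37) and by DESeq2 with the block (-1.39). Rac1 missed the threshold with RLE factors (-0.62), upper quartile factors (-0.60) and no filter (-0.64). Without 1 library or pair, Rac1 ranged from -0.71 to -0.56, Rac2 from -1.03 to -0.92, Cyba from -1.66 to -1.11, Ncf4 from -2.08 to -0.90, Cybb from -1.74 to 0.40 (0.05 without replicate 2), Ncf1 from -1.31 to 1.29 and the Rac2 to Rac1 difference from -0.45 to -0.23. The cause of these changes was not tested. Noxo1 turned to 0.03 without untreated replicate 1 and 0.065 without doxycycline replicate 3. Of 248 alternative values for 14 named genes that are no members, 76 missed the threshold where the main value passed it. Cybb and Ncf1 could not be tested at a minimum of 1 mean CPM. At 69 counts or fewer, depth limits what can be said of Cybb and Ncf1.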

Other observations

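A few genes around Rac were higher with doxycycline in all 3 pairs, none of them past the threshold without the block. Arhgdig, a guanine nucleotide dissociation inhibitor, had 5.99 ± 3.63 CPM in untreated and 25.8 ± 11.3 CPM in doxycycline libraries (SD, n = 3 each), with log2 differences of 2.24, 2.38 and 1.93 within pairs (edgeR adjusted p = 0.077, or 2.9e-06 in the blocked fit). Annotated positions of Arhgdig overlap those of Rgs11, so reads from shared positions cannot be assigned with certainty. Arhgdib, a relative of Arhgdig, fell, as reported above. The WAVE complex subunits Nckap1 and Nckap1l, alternatives for the same place in the complex, differed in the same way: Nckap1 stood at 45.5 ± 5.40 and 72.8 ± 3.08 CPM (0.68, adjusted p = 0.061, or 0.0010 in the blocked fit), while Nckap1l fell. Cyfip2 (0.63, adjusted p = 0.81, or 0.016 in the blocked fit) was also higher in each pair. These genes were picked after their values were seen, and no difference between relatives was tested.

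Summed markers of further cell types ran, untreated and then with doxycycline, from 3.10 to 5.22 and from 5.01 to 7.44 CPM for T and NK cells, from 1.08 to 2.86 and from 0.121 to 0.381 CPM for eosinophils, and from 1.08 to 5.91 and from 2.89 to 11.4 CPM for dendritic cells.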
